A study of Mus musculus with 4 samples.

Results

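The BTB zinc finger lineage factors described here are 6 mouse genes, Zbtb16, Zbtb7b, Bcl6, Zbtb7a, Zbtb1 and Zbtb32, of 22350 protein-coding genes in the annotation. An E2A peak was given to a gene when its midpoint lay in the gene body or within 100 kb of either end (mm9). By this rule 30 of 17532 peaks in DP cells and 2 of 1516 peaks in iNKT cells belonged to the 6 genes, and no peak was given to more than 1 of them.

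Binding of E2A was mapped by ChIP-Seq, that is, by sequencing the crosslinked DNA pulled down with an E2A antibody (V-18), in sorted thymocytes of L-DKO mice. These mice lack Id2 and Id3, the inhibitors of E proteins, through floxed alleles (Id2 f/f Id3 f/f) deleted by LckCre, a Cre driven by the Lck promoter that acts in developing T cells. DP cells were sorted as CD1dTet- CD4+ CD8+ and iNKT cells as CD1dTet+ TCRβ+. Each cell type had 1 E2A library and 1 input library, each from the pooled cells of 3 to 4 mice aged 3 to 5 weeks, with a C57BL/6 background or C57BL/6 and 129 hybrids. Both cell types carried the deletion, so no comparison with Id-sufficient cells is given. With 1 library per cell type no difference between DP and iNKT cells could be tested, and intervals (95% Wilson) cover counting error only. The score of a peak is the MACS value, 10 times the negative log10 of its p-value, with a lowest value of 50 in both lists. Depth is unknown, because the lists hold no reads, and both scores and numbers of peaks grow with depth. Scores and ranks were therefore read only within a list. Peak lists hold no expression, so the sorted cell types could not be checked against their markers.

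BTB zinc finger proteins pair a BTB domain, which forms dimers and recruits corepressors, with zinc fingers that bind DNA, and several of them set the fate of lymphocytes. Zbtb16 encodes PLZF, which directs the innate-like program of NKT cells. Zbtb7b encodes ThPOK, which commits thymocytes to the CD4 lineage, and Zbtb7a encodes the closely related LRF. Bcl6 is a repressor needed by follicular helper T cells and germinal centre B cells and is also expressed in DP thymocytes. Zbtb1 is required for lymphoid development, and Zbtb32 encodes a repressor induced in activated lymphocytes. E2A binds E-boxes, of which CAGGTG, which reads CACCTG on the opposite strand, and the palindrome CAGCTG were searched. Statements on E-boxes below cover only these kinds.

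All 6 genes had at least 1 DP peak, beside 65.1% of all protein-coding genes, and 2 of 6, Zbtb16 and Zbtb7b, had an iNKT peak, beside 16.9%. Not every gene kept a DP peak under stricter rules. By the nearest start alone Zbtb1 and Zbtb32 had 0, at a score of at least 100 Zbtb32 had 0, and at a score of at least 200 Zbtb16, Zbtb1 and Zbtb32 had 0. Both lists had a peak at Zbtb16 and Zbtb7b, beside 15.5% of all protein-coding genes. Each of the 2 iNKT peaks shared at least 1 bp with a DP peak, as did 69.3% of all iNKT peaks. Of these 2 peaks only that of Zbtb7b was left by the nearest start or at a score of at least 100 or 200, and only it overlapped a DP peak when 50% of each peak had to be shared. Conversely, 2 of 30 DP peaks at the 6 genes overlapped an iNKT peak (6.67%, interval 1.85 to 21.3%), beside 5.99% of all DP peaks. The shares of overlapping peaks at these genes could therefore not be told apart from those of the lists as a whole at these numbers.

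**Figure D1:**
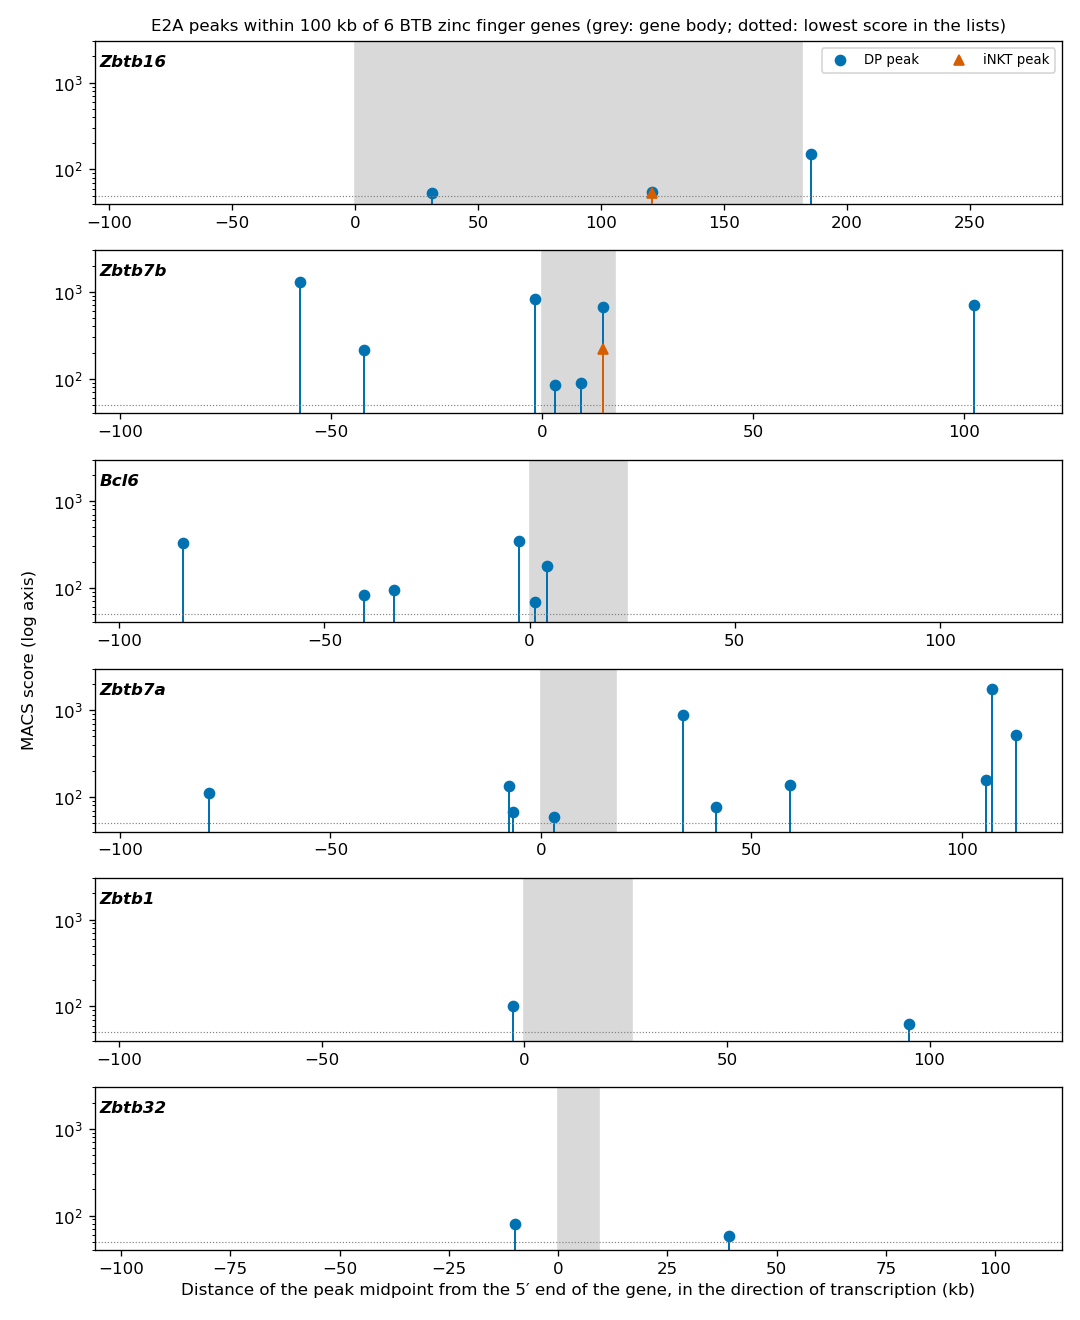
E2A peaks at the 6 genes. The x axis gives the distance (kb) of each peak midpoint from the 5′ end of the gene, in the direction of transcription, and the y axis the MACS score on a log scale, with DP peaks as circles, iNKT peaks as triangles, the gene body in grey and the lowest score in the lists, 50, as a dotted line. The only iNKT peaks stand in the bodies of Zbtb16 and Zbtb7b, and the DP peaks above 500 stand at Zbtb7b and Zbtb7a alone.

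Of the 4 genes with a DP peak in the body, Zbtb16 had the lowest scores there, and it was also 1 of the 2 genes with an iNKT peak. The gene covers chr9:48462416-48644050 on the minus strand. Its 1 iNKT peak, chr9:48522868-48523876, lay in an intron 121 kb downstream of the start, with a score of 54.1 and rank 1311 of 1516. A DP peak in the same intron, chr9:48523017-48523491, had a score of 54.9 and rank 16462 of 17532, and all of its 475 bp lay inside the iNKT peak. Both values stood close to the lowest score of 50. Of the DP peaks with a score under 60, 0.826% overlapped an iNKT peak. The nearest start of a protein-coding gene to the midpoint of the shared DP peak was that of Nnmt, 110.0 kb away, and not that of Zbtb16 itself. The other DP peak in the body, chr9:48612641-48613114, also intronic and 31.2 kb from the start, had a score of 53.2 and rank 16822. The highest score at the gene, 149 at rank 8427, belonged to a DP peak at chr9:48458123-48459028, 3.84 kb past the 3′ end. No peak of either list covered the Zbtb16 promoter, which was taken as 250 bases before to 50 after an annotated start.

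The intronic peaks of Zbtb16 differed in the sequence at their midpoints, and both are shown for that reason as 200 bases of the mm9 plus strand. In the shared DP peak, capitals mark the only E-box of the searched kinds in all of its 475 bp. It was CAGGTG at chr9:48523254-48523259, 2.5 bp from the DP midpoint. The same site lay 115.5 bp from the iNKT midpoint, so the 200 bp at the iNKT midpoint held no E-box of the searched kinds. The peak nearer the start held no E-box of these kinds anywhere. Its capitals mark ACCACA, the core of RUNX sites, and TCAAAG, the core of TCF and LEF sites, and the same 200 bases also hold AGATAA, the reverse complement of the GATA core TTATCT.
Zbtb16 shared intronic peak, chr9:48523155-48523354: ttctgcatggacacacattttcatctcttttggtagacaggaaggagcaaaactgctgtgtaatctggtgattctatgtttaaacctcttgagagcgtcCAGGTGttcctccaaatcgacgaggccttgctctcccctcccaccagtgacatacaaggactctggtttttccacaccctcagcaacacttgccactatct
Zbtb16 intronic DP peak, chr9:48612778-48612977: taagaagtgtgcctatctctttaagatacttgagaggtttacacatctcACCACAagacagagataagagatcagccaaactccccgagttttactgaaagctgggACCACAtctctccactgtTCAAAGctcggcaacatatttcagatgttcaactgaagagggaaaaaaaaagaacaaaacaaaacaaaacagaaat
The letters CAGGTG on either strand were found in the 200 bp at the midpoint of 43.9% of all DP peaks, ACCACA in 23.8%, TCAAAG in 17.4% and TTATCT in 8.89%. In the windows 2 kb to either side of all DP peaks the shares were 15.5%, 15.8%, 13.8% and 10.4%, in the same order. A match is a run of letters and does not show that a factor was bound.

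Zbtb7b (chr3:89181566-89198698, minus strand) had 7 DP peaks and 1 iNKT peak, and 84.8% of protein-coding genes had fewer DP peaks. The iNKT peak, chr3:89183108-89185610, lay in the gene body 14.3 kb from the start, with a score of 219.6 and rank 175 of 1516. It contained a whole DP peak, chr3:89183259-89185144, with a score of 662 and rank 2573. Shared binding at Zbtb7b therefore stood in the upper 11.5% of the iNKT list and the upper 14.7% of the DP list, whereas the shared peak of Zbtb16 stood near the bottom of both. Among all DP peaks with a score of at least 500, 20.8% overlapped an iNKT peak.

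The shared Zbtb7b peak held 9 CAGGTG sites on either strand, of which 7 lay in coding sequence of Zbtb7b and 2 in an intron. At least 9 such sites were found in 1.1% of all DP peaks, and in 0.706% of the 991 DP peaks whose width was within 10% of that of this peak, which had a median of 3 sites. The limit of 9 was taken from this peak itself, so these shares are a description only. The stretch with the most sites, 300 bases with 4 CAGGTG in capitals, is shown because its sites all lie in coding sequence, as did most sites of this peak. The 200 bases at the midpoint of the DP peak follow, with 2 CACCTG in capitals that lie in an intron and start 11 bases apart.
Zbtb7b shared peak, densest stretch, chr3:89183551-89183850: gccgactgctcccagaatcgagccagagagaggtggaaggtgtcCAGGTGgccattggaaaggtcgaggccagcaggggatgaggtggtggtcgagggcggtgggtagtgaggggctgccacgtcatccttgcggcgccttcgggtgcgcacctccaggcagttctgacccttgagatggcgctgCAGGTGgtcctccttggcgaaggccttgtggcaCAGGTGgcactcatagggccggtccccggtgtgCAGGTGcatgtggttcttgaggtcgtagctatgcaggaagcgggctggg
Zbtb7b shared peak, midpoint, chr3:89184102-89184301: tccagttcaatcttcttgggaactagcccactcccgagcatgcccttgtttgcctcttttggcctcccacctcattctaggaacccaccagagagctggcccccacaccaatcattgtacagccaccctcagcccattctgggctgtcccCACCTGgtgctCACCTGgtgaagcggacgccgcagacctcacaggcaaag

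Around the rest of Zbtb7b, DP peaks of high score stood on both sides of the gene. None of them overlapped an iNKT peak, which was the usual case, since only 20.8% of all DP peaks with a score of at least 500 did so. The peak with the highest score, chr3:89255430-89256791, lay 57.4 kb upstream, with a score of 1313 and rank 1190, but the nearest start was that of Pmvk, 6.93 kb away. Another strong peak, chr3:89199728-89200905, lay 1.62 kb upstream of the start, with a score of 823 and rank 2076. Downstream, 102 kb from the start, a peak at chr3:89095941-89096971 had a score of 698 and rank 2463 and was nearest to the start of Efna1. A peak of score 215 lay 42.2 kb upstream in an intron of Pbxip1. The remaining peaks lay in the gene body with scores of 90.1 and 84.9. The latter, chr3:89195309-89196064, covered the annotated start at 89195991, which is 1 of 10 starts of Zbtb7b, and held CACCTG exactly at its midpoint. The peak just upstream of the gene and the one with the highest score are shown to compare the sites at their midpoints, with E-boxes in capitals and, in the latter, TCAAAG as well, which ends 5 bases before the CAGGTG.
Zbtb7b upstream peak, chr3:89200217-89200416: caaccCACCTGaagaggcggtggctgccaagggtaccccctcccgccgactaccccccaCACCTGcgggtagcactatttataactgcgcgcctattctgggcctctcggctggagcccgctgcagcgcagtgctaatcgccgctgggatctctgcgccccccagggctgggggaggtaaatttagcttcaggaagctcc
Zbtb7b distal upstream peak, chr3:89256011-89256210: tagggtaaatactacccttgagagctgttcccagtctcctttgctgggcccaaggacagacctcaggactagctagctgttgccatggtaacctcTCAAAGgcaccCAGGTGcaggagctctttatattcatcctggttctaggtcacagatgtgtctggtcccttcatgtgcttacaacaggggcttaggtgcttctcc

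Zbtb7a had the most DP peaks of the 6 genes within 100 kb, 10, and no iNKT peak. This order depended on how peaks were given to genes. With 30 kb upstream and 5 kb downstream Zbtb7b had 4 and Zbtb7a 3, by the nearest start Bcl6 had 6, Zbtb7b 4 and Zbtb7a 1, and at a score of at least 200 Zbtb7b had 5 and Zbtb7a 3. It covers chr10:80597965-80615740 on the plus strand, and 92.7% of protein-coding genes had fewer DP peaks. Only 1 of the 10 lay in the gene body. This peak, chr10:80600615-80601464, covered the annotated start at 80600698, which is 1 of 6 starts of Zbtb7a, with a low score of 59.2 and rank 15613. It was also the only one for which Zbtb7a had the nearest start. Upstream, adjacent peaks 7.53 and 6.55 kb from the start had scores of 134 and 68.1 and were nearer to the start of Map2k2. The highest score at any of the 6 genes, 1744 at rank 786, belonged to a peak at chr10:80704347-80705917, 107 kb from the Zbtb7a start and in an exon of Zfr2. A peak in an intron of Zfr2 had a score of 518. A strong peak, chr10:80630346-80632897, lay 33.7 kb from the start with a score of 871 and rank 1952, but only 0.954 kb from the start of Pias4. The other peaks had scores from 75.9 to 158. The nearest iNKT peak lay 221 kb from the gene. The E-box nearest the midpoint of the strongest peak is shown with 40 bases on either side, since this peak set the highest score but belongs by distance to Zfr2.
Zfr2 peak within reach of Zbtb7a, chr10:80705033-80705118: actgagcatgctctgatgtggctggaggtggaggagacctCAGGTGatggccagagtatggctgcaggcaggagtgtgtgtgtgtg

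At Bcl6 (chr16:23965138-23988938, minus strand) all 6 DP peaks were nearest to the start of Bcl6 itself, which held for no other gene of the 6, and there was no iNKT peak. The nearest iNKT peak lay 550.2 kb upstream, near Lpp. The DP peaks just upstream and farthest upstream had the highest scores. The first, chr16:23990962-23992217, lay 2.65 kb upstream with a score of 351 and rank 4517, and the second, chr16:24072827-24073924, lay 84.4 kb upstream with a score of 328 and rank 4780. Peaks 33.1 and 40.4 kb upstream had scores of 94.2 and 83.2. In the gene body, an intronic peak 4.22 kb from the start, chr16:23983356-23986081, was the widest of all 30 at 2726 bp and had a score of 176. The other, 1.21 kb from the start, had a score of 68.3. No peak covered an annotated start.

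The letters at the midpoints of the Bcl6 peaks are given as counts, without a test, since this gene and these letters were singled out after the counts of all 6 genes were seen. ACCACA was found in the 200 bp at the midpoint of 5 of 6 Bcl6 peaks and of 4 of 24 peaks at the other genes, beside 23.8% of all DP peaks. TCAAAG was found in 3 of 6 and, at the other genes, in 4 of 24, beside 17.4%. In 2 of 6 peaks the ACCACA ran into an E-box, in the order ACCACACCTG, where ACCACA and CACCTG share 2 bases. This run of 10 letters was found in the midpoint window of 92 of 17532 DP peaks (0.525%) and in no peak at the other 5 genes. It was looked for only after it had been seen at Bcl6, so its count there is a description. Both windows are shown to let the shared run be compared, with E-boxes, ACCACA and TCAAAG in capitals. Each also holds TCAAAG upstream of the run on the plus strand.
Bcl6 intronic peak, chr16:23984619-23984818: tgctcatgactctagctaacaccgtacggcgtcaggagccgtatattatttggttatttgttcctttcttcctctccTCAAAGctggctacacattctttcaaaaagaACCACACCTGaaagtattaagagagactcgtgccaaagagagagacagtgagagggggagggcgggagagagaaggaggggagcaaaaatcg
Bcl6 peak 40.4 kb upstream, chr16:24029222-24029421: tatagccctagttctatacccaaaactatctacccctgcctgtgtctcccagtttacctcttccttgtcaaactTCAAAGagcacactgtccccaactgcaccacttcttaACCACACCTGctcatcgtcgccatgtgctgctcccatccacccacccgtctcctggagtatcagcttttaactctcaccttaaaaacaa

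Zbtb1 and Zbtb32 had 2 DP peaks each, no peak in the body and no iNKT peak, and 49.2% of protein-coding genes had fewer DP peaks. Near Zbtb1 (chr12:77471253-77497937, plus strand), a DP peak at chr12:77467989-77469161 lay 2.68 kb upstream with a score of 100 and rank 10979. It stood in an intron of Zbtb25, another BTB zinc finger gene, whose start was nearer at 1.41 kb. The other peak lay 94.9 kb from the Zbtb1 start with a score of 61.8. Near Zbtb32 (chr7:31374700-31383928, minus strand), the peak closest to the gene, chr7:31393420-31394227, lay 9.90 kb upstream in an intron of Upk1a with a score of 79.4 and rank 12773. A peak in an exon of Lin37, 0.082 kb from the start of that gene, had a score of 58.1. No peak at either gene reached the median score of the DP list, 141. All 4 peaks held CAGGTG within 200 bp at the midpoint, and the peaks closest to each gene are shown with the E-box nearest the midpoint in capitals.
Zbtb1 upstream peak, chr12:77468494-77468579: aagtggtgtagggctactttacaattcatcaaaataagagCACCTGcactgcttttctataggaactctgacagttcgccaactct
Zbtb32 upstream peak, chr7:31393772-31393857: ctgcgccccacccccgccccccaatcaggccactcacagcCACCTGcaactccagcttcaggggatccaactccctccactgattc

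The 100 kb limit had strong peaks on both of its sides. The 2 outermost peaks inside it were those of Zfr2 near Zbtb7a, 89.4 and 95 kb outside the gene with scores of 1744 and 518. Just beyond it, the next DP peaks lay 104 kb from Bcl6 with a score of 469.7 and 104.9 kb from Zbtb7a with a score of 734. At Zbtb1 the next peak, 131 kb from the gene and nearest to Plekhg3, had a score of 204 and overlapped an iNKT peak of score 114. For Zbtb7b, Zbtb16 and Zbtb32 the next DP peaks lay 126, 149 and 167 kb away, with scores of 87.5, 109.6 and 83.6.

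The 30 DP peaks had scores and widths close to those of the list. Their scores ran from 53.2 to 1744 with a median of 122.5, beside 141 for all DP peaks, and their median width was 1006.5 bp, beside 984 bp. The DP peaks at or above the upper quartile of the list included 7 of 30 peaks (23.3%). They were the 7 peaks with a score of at least 500, which 19.1% of all DP peaks reached, and they stood at Zbtb7b (4 peaks) and Zbtb7a (3 peaks). Only 2 of the 7 had a member as the gene with the nearest start, and both of these lay at Zbtb7b. Of all 30 peaks, 12 had a member as the nearest gene and 18 had another gene. The midpoint lay in the body of a member for 8 of 30 peaks, upstream for 12 and downstream for 10. By the annotation, 13 midpoints were intronic, 13 intergenic and 4 exonic. The body of some protein-coding gene thus held 17 of 30, beside 54.6% of all DP peaks. With all annotated starts counted, a DP peak covered a promoter of 2 of 6 genes, Zbtb7b and Zbtb7a, beside 12.9% of all protein-coding genes, and an iNKT peak covered none, beside 0.568%. The count was 0 of 6 with the start of the gene record alone, since both peaks lay over alternative starts, with midpoints 3.01 and 3.07 kb from the 5′ ends of the genes. Zbtb7b and Zbtb7a had the most annotated starts, 10 and 6, beside 1 to 3 at the other genes. Both promoter peaks had scores under 100, as did 13 of 30 peaks, while 17 of 30 had a score of at least 100, beside 62.6% of all DP peaks.

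**Figure D2:**
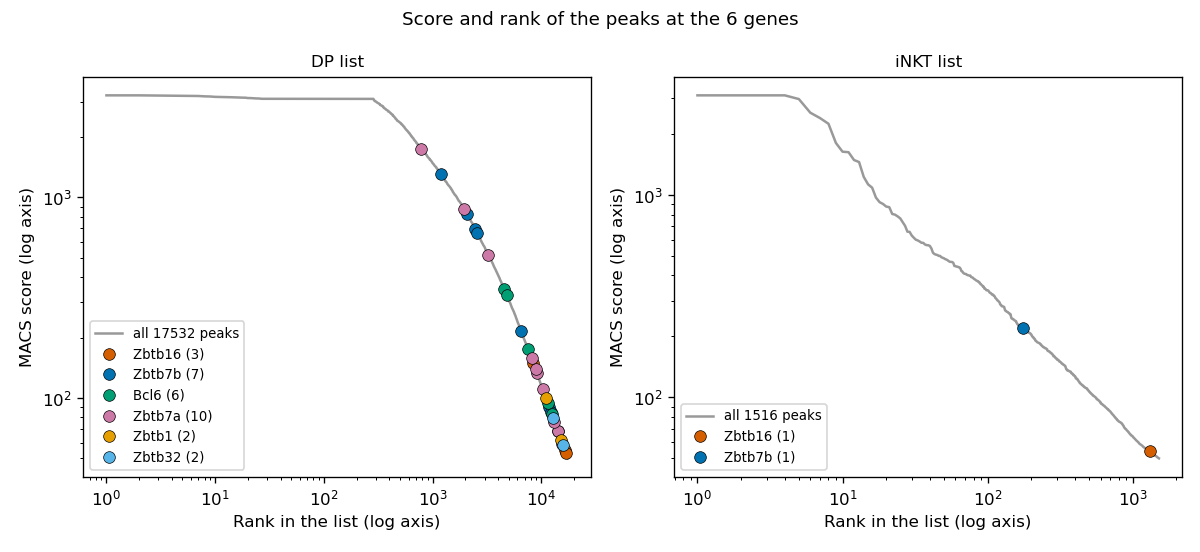
Score of each peak at the 6 genes against its rank in the DP list (left) and the iNKT list (right), both axes on a log scale, with the whole list as a grey line and 1 color per gene. The shared peak of Zbtb7b ranked 2573 of 17532 and 175 of 1516, and that of Zbtb16 ranked 16462 and 1311.

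At least 1 E-box was found in 26 of 30 DP peaks, beside 91.9% of all DP peaks. The 30 peaks held 77 sites, 54 CAGGTG and 23 CAGCTG, or 2.27 per kb of peak, beside 2.68 per kb over all DP peaks. CAGGTG made up 70.1% of these sites, beside 60.6% over all DP peaks. In the 200 bp at the midpoint, 21 of 30 peaks held an E-box (70.0%, interval 52.1 to 83.3%), beside 60.8% of all DP peaks and 28.3% of the windows 2 kb to either side of the 30 peaks. CAGGTG was found there in 19 of 30 (63.3%, interval 45.5 to 78.1%), beside 43.9%, and CAGCTG in 4 of 30 (13.3%, interval 5.31 to 29.7%), beside 29%. The list share of CAGGTG lay just below the lower bound and that of CAGCTG just inside the upper bound, and peaks of 1 gene are not independent. The median GC content of these windows was 55.5%, beside 51% for all DP peaks. The part of GC content in the motif shares was not tested. Per kb of DP peak, Zbtb32 had 3.59 sites (6 in 2 peaks), Zbtb7b 3.15 (27 in 7 peaks), Zbtb7a 2.18 (27 in 10 peaks), Zbtb16 1.62 (3 in 3 peaks), Zbtb1 1.59 (3 in 2 peaks) and Bcl6 1.47 (11 in 6 peaks).

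**Figure D3:**
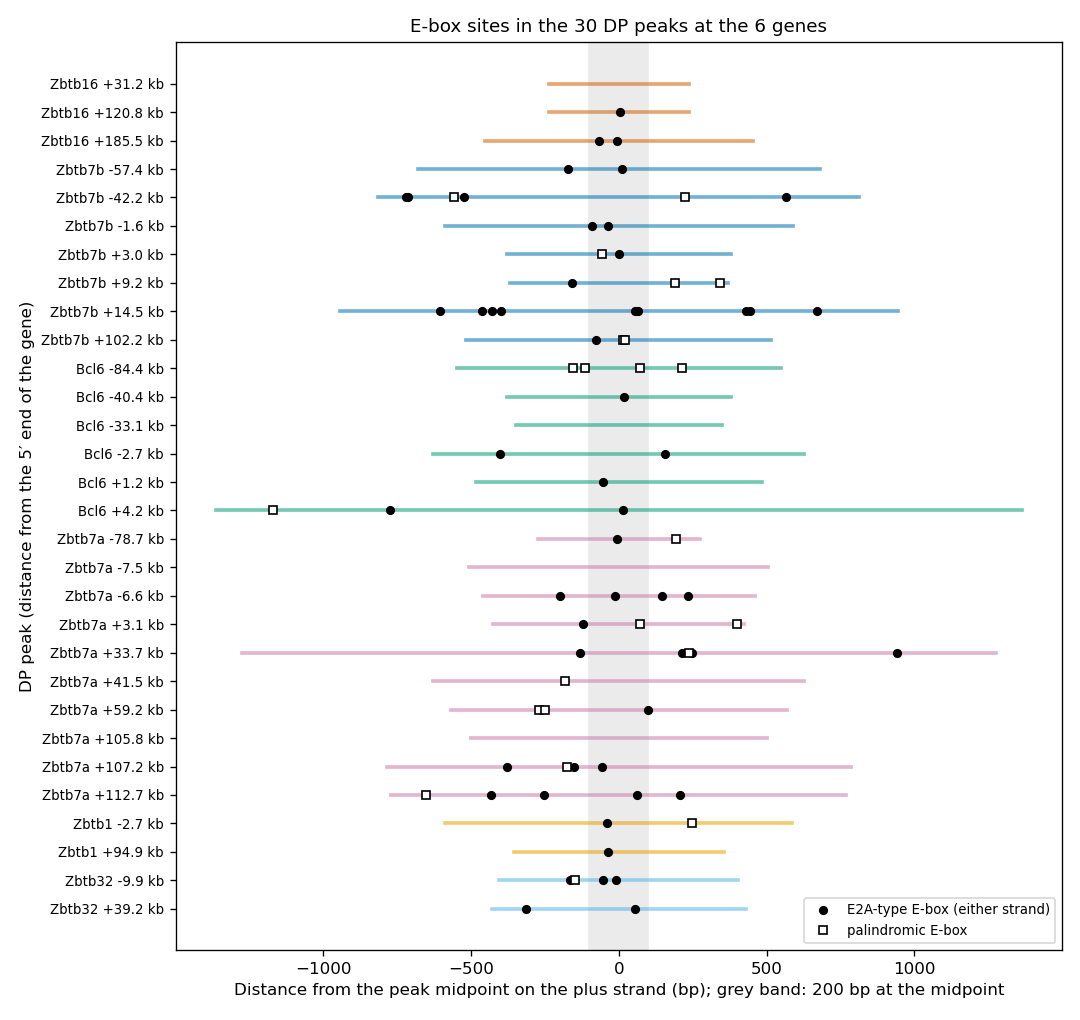
Position of each E-box in the 30 DP peaks. The x axis gives the distance (bp) from the peak midpoint on the plus strand, each row is 1 peak drawn to its width and named by its gene and distance from the start, filled circles are CAGGTG on either strand, open squares are CAGCTG, and the grey band marks the 200 bp at the midpoint. Of 30 peaks, 21 have a site in the band and 4 have none in the whole peak, and the shared Zbtb7b peak has 9.

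Other genes of the BTB zinc finger family were examined by the same rule. Of 41 such genes found in the annotation, 33 had a DP peak (80.5%, interval 66.0 to 89.8%), beside 65.1% of all protein-coding genes, and 7 had an iNKT peak (17.1%, interval 8.53 to 31.3%), beside 16.9%. These counts depended on the rule. The 33 genes with a DP peak became 19 with 30 kb upstream and 5 kb downstream, 15 by the nearest start and 17 at a score of at least 200, and the 7 with an iNKT peak became 2 at 50 kb. Neighbouring family genes also share peaks, as Zbtb34 and Zbtb43 share the peak of score 189.6 that is the highest at either. The interval of the DP share is therefore too narrow, and no excess is read from it. Zbtb25, counted here, shares its peak of score 100 with the member Zbtb1. Both kinds of peak were found at 6 of the 41 and neither at 7. The family had a median of 2 DP peaks per gene. Most DP peaks were found at Patz1, with 10 as at Zbtb7a, followed by Zbtb38 with 9 and by Zbtb9 and Bcl6b with 7 each, as at Zbtb7b. An iNKT peak in the gene body, as at Zbtb16 and Zbtb7b, was found at Zbtb47 with a score of 492, higher than that at Zbtb7b, and at Zbtb20 with a score of 61.1 and no overlap with a DP peak. The iNKT peaks within 100 kb of Zbtb10, Zbtb24, Zbtb37, Zbtb39 and Zbtb49 lay 51.9 to 87.2 kb outside these genes, with scores from 56.9 to 337. By numbers of peaks in both lists, 6 family genes were equally close to Zbtb16, with a summed difference of 1, and Zbtb37 was the only one of them with an iNKT peak.

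**Figure D4:**
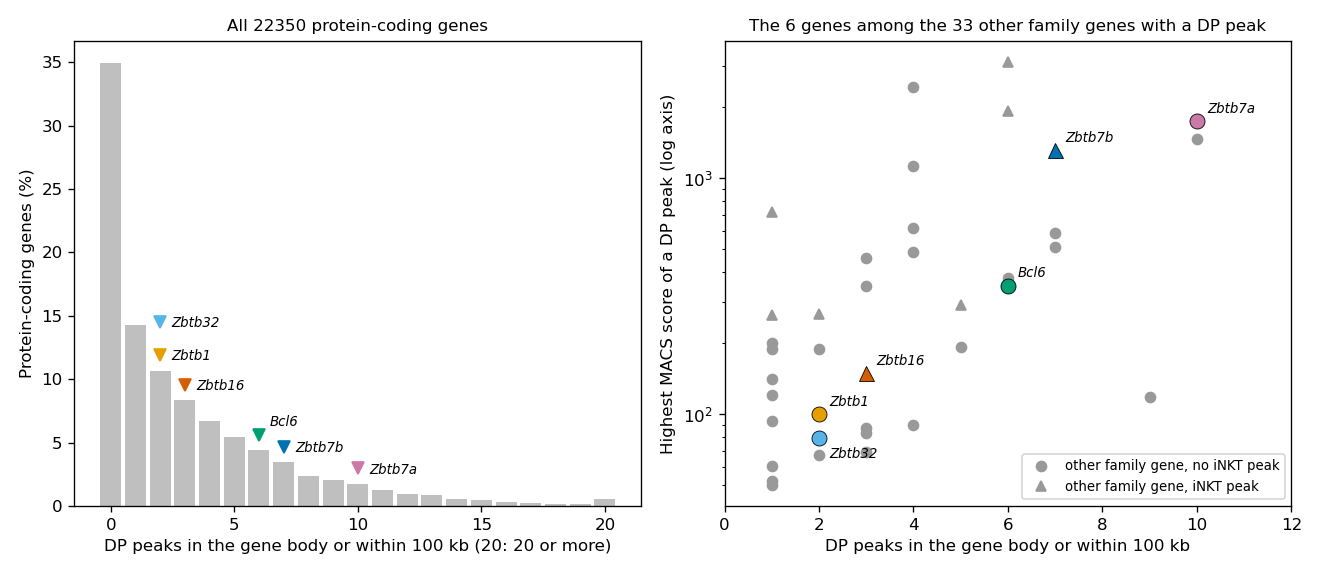
Left, percent of 22350 protein-coding genes (y axis) by number of DP peaks in the gene body or within 100 kb (x axis), with the 6 genes as colored triangles above their bars. Right, highest MACS score of a DP peak (log axis) against the number of DP peaks for the 6 genes (colored) and the other 33 family genes with a DP peak (grey), with triangles for genes that also have an iNKT peak; Zbtb7b and Zbtb16 are the 2 colored triangles.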

How the data were processed

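The E2A ChIP-Seq gave 1 peak list for DP cells and 1 for iNKT cells. Reads were aligned by the authors with Bowtie 1.1.2 on mm9, and peaks were called with MACS 1.4.2, by the paper's methods and the submitters' processing notes. The deposited lists give each peak its position and its score, which the authors took from MACS and which is −10 log10 of the p-value. Reads and inputs are not analysed here, so depth is unknown. Genes came from GENCODE M1 on NCBIM37, the assembly of mm9, and bases from that genome. Distances run from the peak midpoint to the 5′ end of the gene, and the nearest start is that of any annotated transcript of a protein-coding gene. Overlap needed 1 bp. Motif letters were looked for on either strand, in the middle 200 bp and 2 kb to either side.

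Every iNKT peak, every overlapping DP peak, the DP peaks of highest score, nearest a start and in the body were named, with the 3 family genes with most DP peaks (4 with a tie) and those with an iNKT peak. The members and lists were chosen with earlier results of these data known. The 500 kb window, the score limits of 500 and 60, the run ACCACACCTG and the count of 9 sites were chosen after the values were seen. The family list had 43 genes, and 41 matched by symbol or older symbol. The scripts were tested on simulated data, with 8 of 8 known answers recovered. Alternatives were other windows, placement by any base, nearest start, scores of at least 100 and 200, overlap of 50%, and other promoter and motif windows. Python 3.11.15, numpy 2.4.6, pandas 2.3.3, scipy 1.17.1 and matplotlib 3.10.9 were used.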

Additional observations from a re-analysis of the deposited data

How the results depend on the processing

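In all, 16 results were recomputed. Of these, 10 counts, shares or medians over the genes gave 62 values, of which 30 stayed close and 32 moved by more than 1.5 times or outside their interval. The counts of DP peaks at the 6 single genes gave 42 values, of which 15 stayed close and 27 moved. Those of Zbtb7a, 10 within 100 kb, ran from 1 by the nearest start to 53 within 500 kb, and 3 genes had 0 at a score of at least 200. The 30 DP peaks became 15 with 30 kb upstream and 5 kb downstream, 12 by the nearest start alone, 17 at a score of at least 100, 10 at a score of at least 200 and 144 within 500 kb. The 2 iNKT peaks became 1 by the nearest start, at a score of at least 100 and at a score of at least 200, and 9 within 500 kb. The overlaps in either direction became 1 under the same 3 settings and where 50% of each peak had to overlap. The peak lost in each case was that of Zbtb16. The median DP score became 328 and 680.4 at minimum scores of 100 and 200. Promoter peaks were found at 0 of 6 genes at scores of at least 100 or 200, or at the start of the gene record alone. E-boxes were found in 86.7% of whole peaks and 43.3% of windows of 100 bp. The 33 family genes with a DP peak became 19 with 30 kb upstream and 5 kb downstream, 15 by the nearest start and 17 at a score of at least 200. The 7 family genes with an iNKT peak became 2 at 50 kb, with 30 kb upstream and 5 kb downstream or at a score of at least 200, and 3 by the nearest start or at a score of at least 100. The cause was not tested beyond the smaller or larger set of peaks that each setting leaves. With 1 library per cell type and no depth, no difference between cell types could be tested. No paired analysis was possible because no result comes from a test.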

Other observations

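Within 500 kb of Bcl6, a window chosen after the values were seen, the DP list held 36 peaks, of which 34 lay upstream of the start and 2 in the gene body. In this window 95.4% of protein-coding genes had fewer DP peaks. The iNKT list held no peak there, as was so for 49.8% of all protein-coding genes and for 60 of the 1028 genes (5.84%) with at least as many DP peaks, many of which are neighbours and share peaks. Of all DP peaks, 5.99% overlapped an iNKT peak. These shares are a description, and nothing particular to Bcl6 is drawn from them. The highest score, 2634 at rank 408, belonged to chr16:24259480-24261126, 271 kb upstream, with the start of Lpp nearest at 133 kb. Other upstream peaks had scores of 1386 at 212 kb and of 2214 at 440 kb, the latter in an intron of Lpp. These values exceed the 351 found within 100 kb of Bcl6. Zbtb7a had 53 DP peaks within 500 kb, more than 99.4% of genes, and Zbtb16 had 6, beside a median of 9 over all genes. The next iNKT peak after that in the Zbtb16 intron lay 1914 kb from the gene.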
